A study of Mus musculus with 30 samples.

Results

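The genes described are those of the protein-folding machinery of the mitochondrial matrix, the co-chaperonin Hspe1, the mitochondrial Hsp70 Hspa9 with its partners Dnaja3 and Grpel1, and the Hsp90-type chaperone Trap1, together with Phb2, a prohibitin of the inner membrane. They were chosen by name, as genes commonly read as a transcript measure of the mitochondrial unfolded protein response. Each gene was represented by the probe set assigned to its symbol alone that had the highest mean over the arrays. Of 7 symbols named, 6 were measured, with 13 probe sets among them, out of 17097 genes in all. Hspd1, the chaperonin partner of Hspe1, was not analysed here. RNA was taken from 5 tissues (heart, brain, liver, testis and skeletal muscle). The donors were mice in which Clpp, the gene for the proteolytic subunit of a matrix protease, was knocked out (labelled ClpP KO), and their wild-type littermates, all on the C57BL/6 background. Levels are log2 expression values from Affymetrix arrays, with 3 arrays for each genotype in each tissue, making 10 groups and 30 arrays. The labels name no age, allele or sex. They do not say whether the 3 samples of a group were separate animals or whether the same animals gave several tissues, so p-values measure the spread between these samples.

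Proteins made in the cytosol enter the matrix unfolded, drawn in by Hspa9, which hydrolyses ATP as it binds the incoming chain. J-domain proteins such as Dnaja3 deliver substrates and speed ATP hydrolysis, and Grpel1 exchanges the spent nucleotide. Many proteins then fold inside the chaperonin cage, a Hspd1 barrel capped by a Hspe1 lid, while Trap1 acts on a smaller set of clients. ClpP, fed by its unfolding partner ClpX, degrades proteins that cannot be refolded. When unfolded protein builds up in the matrix, cells can raise transcription of nuclear genes for these chaperones and for proteases, a programme called the mitochondrial unfolded protein response. Prohibitins, Phb and Phb2, form ring complexes in the inner membrane that hold assembly factors and proteases, and in mammals Phb2 also serves in mitophagy.

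The start regions of Hspe1, Phb2 and Trap1 are shown because the first 2 had the largest rises in testis of the knockout and Trap1 the only value below wild type there. RefSeq promoter sequence of the GRCm38.p6 assembly was found for 5 of the 6 genes, and Hspa9 was not matched. Hspe1 and Hspd1 are neighbours on opposite strands and the stretch shown, chr1:55087933-55088147 on the plus strand, lies between the Hspe1 start site and 1 of 2 annotated Hspd1 start sites, the other being inside Hspe1. The Phb2 stretch is chr6:124712187-124712288 on the plus strand and the Trap1 stretch chr16:4077841-4078060 on the minus strand, each written 5′ to 3′ towards its own gene. Capitals mark joined heat shock element units (GAANNTTC or TTCNNGAA), the core TGCAAT bound by C/EBP proteins and CHOP, the amino acid response core TGATGNAA, and the cAMP response core TGACG on either strand.
Hspe1 and Hspd1, shared: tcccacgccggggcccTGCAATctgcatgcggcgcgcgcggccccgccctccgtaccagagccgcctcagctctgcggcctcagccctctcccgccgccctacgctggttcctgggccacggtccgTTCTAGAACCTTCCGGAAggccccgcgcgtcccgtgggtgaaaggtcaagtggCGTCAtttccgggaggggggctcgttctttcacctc
Phb2: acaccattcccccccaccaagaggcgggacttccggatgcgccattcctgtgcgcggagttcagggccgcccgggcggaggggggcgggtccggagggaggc
Trap1: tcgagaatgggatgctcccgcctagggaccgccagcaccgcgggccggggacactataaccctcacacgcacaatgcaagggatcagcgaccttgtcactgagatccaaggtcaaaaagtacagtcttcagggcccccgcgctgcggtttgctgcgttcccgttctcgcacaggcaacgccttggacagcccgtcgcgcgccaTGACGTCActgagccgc

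The Hspe1 stretch held 4 joined heat shock units, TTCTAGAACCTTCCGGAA, from 89 to 72 bases before the Hspe1 start site. Among 32817 promoter windows of 250 bases, 12.8% held at least 1 pair of such units, 0.466% held 3 joined units and 7 windows (0.0213%) held 4, those of Hspe1, Hspd1, Arpc2, Fam149a, Kctd18 and 2 predicted genes. TGCAAT stood 199 to 194 bases before the Hspe1 start and was in 7.32% of all windows. The core TGACG, in 17.7% of windows, was read from the reverse strand in Hspe1, and both orientations overlapped in Trap1 as TGACGTCA. None of the capitalised motifs was in the Phb2 window, which had 3 matches to the Sp1 core GGGCGG (32.7% of windows). The Dnaja3 window, not shown, held the NRF1 core (3.73% of windows), and the Grpel1 window held 2 cAMP response cores. TGATGNAA, in 3.45% of windows, was in none of the 5. A match of letters is a description of the sequence and was not tested as a binding site.

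Array medians lay between 3.24 and 3.38. Clpp was lower on the knockout arrays in all 5 tissues, by 3.23 log2 units in testis (3.15 against 6.38) and by between 4.82 and 5.56 in the others. The marker list of each tissue summed higher on all its own arrays than on any array of another tissue. Sums over a list are the log2 of the summed unlogged values, so the brightest genes of a list weigh most. Some arrays carried more transcripts of another tissue than the rest of their tissue. Testis wild-type replicate 3 summed to 12.6 over 3 epididymis genes, against 4.22 to 4.63 on the other 5 testis arrays, and muscle wild-type replicate 1 summed to 11.0 over 21 sperm genes, against 9.13 to 9.60 on the other muscle arrays. Over 8 hepatocyte genes muscle knockout replicate 1 summed to 7.79, against 5.75 to 5.96 on the other muscle arrays, and heart knockout replicate 1 to 8.63, against 5.92 to 7.48 on the other heart arrays. The cardiomyocyte list summed to 12.2 to 12.6 on knockout and 8.37 to 10.9 on wild-type muscle arrays, so that it moved with genotype there; its part in the muscle results was not tested. The knockout calls of the 6 genes are also given without the first pair of arrays, and those in heart and muscle without the second pair. Wild-type levels, cell-type counts and most list counts are given with all arrays. Control probe sets at the 3′ and 5′ ends of the GAPDH transcript differed by 0.55 ± 0.04 (SD, n = 3) on knockout testis arrays and by 0.98 ± 0.17 on wild-type ones, and those of actin by 1.23 ± 0.08 and 1.66 ± 0.33. In liver the actin difference was 1.79 to 2.39 on knockout and 1.67 to 1.77 on wild-type arrays. The liver GAPDH difference overlapped, at 0.86 to 1.66 on knockout and 0.77 to 1.03 on wild-type arrays. Both measures of RNA integrity thus moved with genotype in testis, and that of actin in liver. Their part in the testis and liver results was not tested.

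In wild-type mice the 6 genes were highest in heart or liver and lowest in brain or testis. All means below are of 3 arrays, with the SD. Hspe1 read 10.17 ± 0.33 in liver, 9.92 ± 0.13 in heart, 9.41 ± 0.18 in muscle, 8.99 ± 0.02 in brain and 7.31 ± 0.30 in testis, so that liver exceeded testis by 2.85 log2 units, 7.24-fold. Testis lay 1.68 below brain (limma adjusted p = 1.98e-10), while liver and heart did not differ beyond their spread (adjusted p = 0.199). Hspe1 and Dnaja3 had the widest ranges over tissues among the 6 genes, and on their main probe sets both were lowest in testis.

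Hspa9 stood at 10.36 ± 0.06 in heart, 10.17 ± 0.11 in muscle, 9.75 ± 0.07 in liver, 9.15 ± 0.05 in testis and 8.68 ± 0.15 in brain. Its heart and muscle levels did not differ beyond the spread (limma adjusted p = 0.213), and each later step down the order passed the test. Grpel1, its nucleotide exchange factor, followed nearly the same order, with 9.84 ± 0.15 in heart, 9.64 ± 0.05 in liver, 9.17 ± 0.13 in muscle, 8.69 ± 0.10 in testis and 8.22 ± 0.08 in brain, and heart and liver could not be separated (adjusted p = 0.142). Both genes had brain at the bottom, with a span of 1.68 log2 units for Hspa9 and 1.62 for Grpel1. On its main probe set the J-domain partner Dnaja3 had testis at the bottom instead: 8.91 ± 0.09 in heart, 8.71 ± 0.04 in muscle, 8.47 ± 0.18 in liver, 7.17 ± 0.11 in brain and 6.06 ± 0.29 in testis. Heart, muscle and liver were not separable as neighbours (adjusted p = 0.251 and 0.137), and brain and testis lay well apart from them and from each other. The second Dnaja3 probe set, with a mean level of 5.93, had another order. It averaged 6.98 in muscle, 6.88 in heart, 6.19 in testis, 6.06 in liver and 4.25 in brain, so that brain was lowest.

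Trap1 was 9.22 ± 0.28 in liver, 8.95 ± 0.14 in muscle, 8.88 ± 0.08 in heart and 8.53 ± 0.11 in testis, and 7.28 ± 0.18 in brain, which was 1.25 below testis (limma adjusted p = 1.07e-09). Its first 3 tissues did not differ as neighbours (adjusted p = 0.0759 and 0.706). Phb2 read 10.54 ± 0.10 in heart, 10.28 ± 0.26 in liver, 9.95 ± 0.08 in muscle, 8.81 ± 0.12 in brain and 8.74 ± 0.10 in testis. Heart and liver (adjusted p = 0.0898) and brain and testis (adjusted p = 0.594) could not be told apart for Phb2. Over the 6 genes 15 of 24 neighbouring pairs and 51 of 60 pairs in all passed the test, where 57.7% of all gene-by-pair comparisons did. Levels of different probe sets are not compared with each other.

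**Figure D1:**
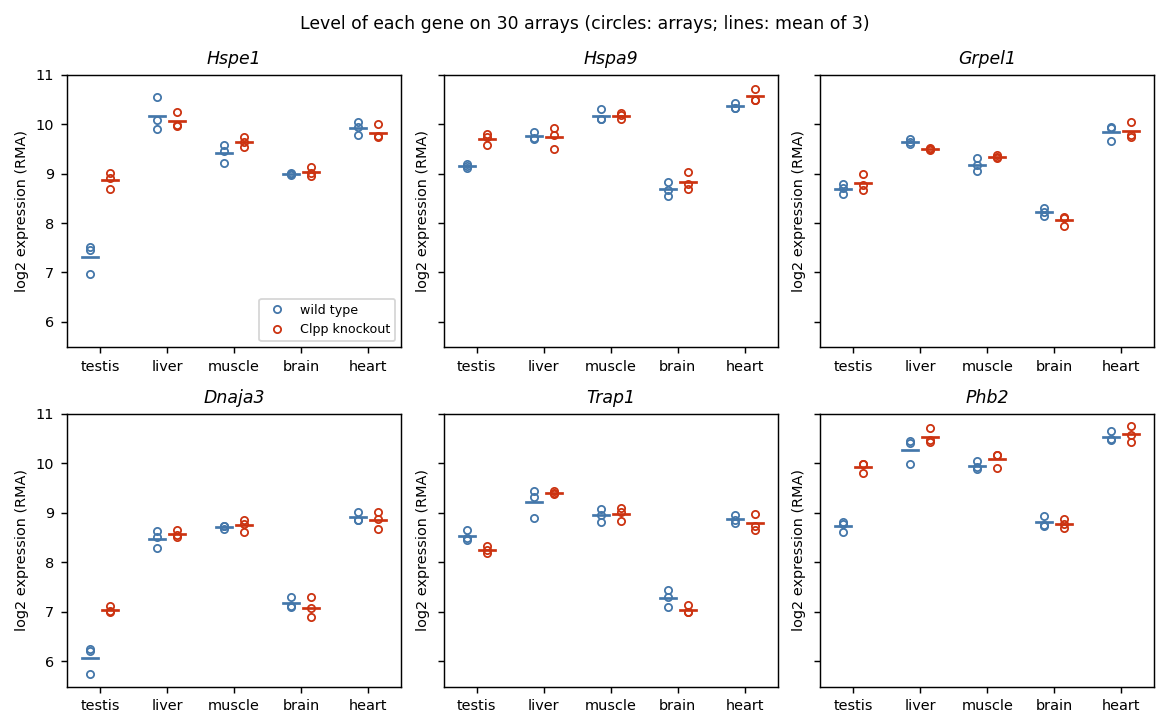
Log2 expression (RMA, vertical axis) of 6 genes in 5 tissues, with 1 circle per array and a line at the mean of 3 arrays, wild type in blue and Clpp knockout in red. In testis the red circles of Hspe1, Hspa9, Dnaja3 and Phb2 all lie above the blue ones; in the other tissues the colours lie close together, and the tissues themselves differ by up to 2.85 log2 units.

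The order of tissues was not that of a list of 16 markers of mitochondrial mass (respiratory chain, citrate synthase and porin genes). Relative to brain, all 6 genes were higher in heart, with a median difference of 1.65 log2 units, beside a median of 1.28 for the mass markers, 16 of 16 of which were higher (limma, 58.3% of all genes called in that comparison). Muscle gave medians of 1.32 and 0.86, with 6 of 6 and 15 of 16 higher (59.4% of genes called). In liver the lists parted: all 6 genes were higher than in brain, by 1.07 (Hspa9) to 1.94 (Trap1), while only 2 of the 16 mass markers were higher, 9 were lower and their median was -0.37 (60.7% of genes called). In testis 3 of the 6 were higher than in brain and 2 lower, with a median of 0.20, and 13 of 16 mass markers were lower, with a median of -1.07 (69.1% of genes called). Dnaja3, among the genes lower in testis than in brain, was higher there on its second probe set (6.19 against 4.25). The difference between the lists was not tested.

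In the testis of the knockout, 4 of the 6 genes were higher than in wild type, none was lower, and 2 did not pass the test. In that comparison limma called 56.2% of all genes, 32.8% as higher in the knockout and 23.4% as lower. The knockout and wild-type arrays did not overlap for 5 of the 6 genes, as for 63.5% of all genes. Hspe1 rose most. Its knockout arrays read 8.92, 9.02 and 8.69 and its wild-type arrays 6.97, 7.46 and 7.51. Every knockout array was thus above every wild-type array by more than 1 log2 unit, and the mean difference was 1.56 ± 0.15 log2 units (SE, 3 arrays a group), 2.95-fold, with a limma adjusted p of 1.93e-09. The mean of the knockout testis arrays, 8.87, was still below the Hspe1 means of the other tissues.

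Of the Hsp70 group, Hspa9 read 9.79, 9.73 and 9.58 on knockout testis arrays and 9.15, 9.20 and 9.11 on wild-type ones. The groups did not overlap, and the difference was 0.55 ± 0.11, 1.46-fold (limma adjusted p = 0.000137). Dnaja3, which delivers substrates to Hspa9, read 7.11, 7.01 and 6.99 against 6.20, 6.25 and 5.73. These too were separate, by 0.97 ± 0.13 or 1.96-fold (adjusted p = 3.29e-07). Grpel1, which releases the nucleotide from Hspa9, gave 8.67, 8.77 and 8.99 in the knockout and 8.80, 8.59 and 8.70 in wild type. The Grpel1 groups overlapped, with a difference of 0.11 ± 0.10 and a 95% interval from -0.10 to 0.33 (adjusted p = 0.383).

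Trap1, the Hsp90-type chaperone, read 8.32, 8.20 and 8.25 in knockout testis and 8.66, 8.45 and 8.49 in wild type. All its knockout arrays lay below all wild-type arrays, but the difference of -0.28 ± 0.12 missed the threshold over all genes (limma adjusted p = 0.0603, unadjusted 0.0345), and it passed where fewer genes were tested. Phb2 read 9.98, 9.98 and 9.80 against 8.62, 8.82 and 8.77. The Phb2 groups were far apart, by 1.18 ± 0.12 or 2.27-fold (adjusted p = 5.49e-09). Its ring partner Phb, counted here among the partner genes, rose alongside it, with 7.56, 7.61 and 7.38 against 6.59, 6.34 and 6.73, a difference of 0.96 ± 0.13 (adjusted p = 6.83e-07). Without testis wild-type replicate 3 the same 4 of the 6 passed, with differences of 1.66 for Hspe1, 0.53 for Hspa9, 0.81 for Dnaja3 and 1.20 for Phb2.

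Much of the testis transcriptome moved the same way. Of the 5168 genes with a mean level of at least 6, to which all 6 members belong, 62.9% were called higher in knockout testis and 80% were called at all, with a median difference of 0.69. The median of the 6 members was 0.76. Among those genes 12.1% had a larger difference than Hspe1, 27.8% than Phb2, 37.3% than Dnaja3, 56.0% than Hspa9, 71.0% than Grpel1 and 81.2% than Trap1. The members' count of rises was 4 of 6, close to that background share. Over all 17097 genes, dim ones included, the median was 0.02. The class of 5168 is set by the mean over all 30 arrays, so genes bright in testis alone can fall outside it. It held 1 of 21 elongating spermatid and sperm genes and 1 of 17 round spermatid genes.

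**Figure D2:**
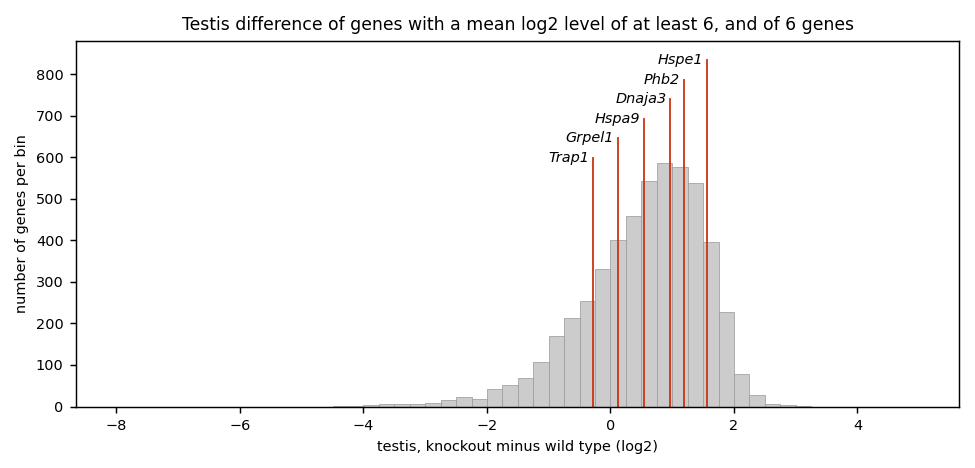
Number of genes per bin of 0.25 log2 units (vertical axis) by testis difference, knockout minus wild type (horizontal axis, log2), for the 5168 genes with a mean level of at least 6, with red lines at the 6 members. Hspe1 at 1.56 stands towards the right shoulder, with 12.1% of the genes beyond it, and Trap1 at -0.28 to the left of the peak.

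Cell-type markers moved with genotype in the same testis arrays. Of 21 elongating spermatid and sperm genes 19 fell and 1 rose, and their summed level was 13.2 to 13.7 on knockout arrays against 16.1 to 16.5 on wild-type arrays. Of 17 round spermatid genes 15 fell and 1 rose, with sums of 12.2 to 12.7 against 14.2 to 14.6. Against that, 16 of 16 Sertoli genes, 9 of 9 Leydig genes, 8 of 11 spermatogonial genes and 13 of 16 macrophage genes rose. Their sums were 14.0 to 14.2 against 12.5 to 12.9 for Sertoli, 14.0 to 14.1 against 12.6 to 12.8 for Leydig and 12.0 to 12.3 against 10.7 to 10.8 for spermatogonial genes. The macrophage sum did not follow its count, at 10.7 to 11.0 against 10.8 to 11.1. In whole tissue, fewer cells of a type and less RNA per cell cannot be told apart. No defining marker could be read as 0 on this scale, and the part of these shifts in the chaperone results was not tested.

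The other probe sets of 4 genes gave the same testis direction, and those of Dnaja3 did not. The second probe set of Hspe1 differed by 1.37, the other Hspa9 probe sets by 0.52 and 0.41, and the second of Phb2 by 1.12, with limma adjusted p of 4.75e-09, 0.00157, 0.00853 and 2.62e-07 in a fit of all probe sets. The second Trap1 probe set was lower in the knockout by -0.37 ± 0.15 (adjusted p = 0.0376). The main Hspe1 and Phb2 probe sets are of types that may match more than 1 transcript (_s_at and _x_at), which their second probe sets are not. Grpel1 had 1 probe set.

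For Dnaja3 the second probe set, with a mean level of 5.93 against 7.96 for the main one, read 5.20, 4.90 and 5.0 in knockout testis and 6.50, 5.81 and 6.26 in wild type. That is a fall where the main probe set showed a rise, of -1.15 ± 0.22 (limma adjusted p = 7.94e-05, with no overlap). The third probe set had a mean of 2.79, near the bottom of the scale, and a difference of -0.12 (adjusted p = 0.495). The rise of Dnaja3 in testis therefore holds for 1 of its 3 probe sets, and the means over all of them differed by -0.10. Which transcripts each probe set reads was not analysed here.

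**Figure D3:**
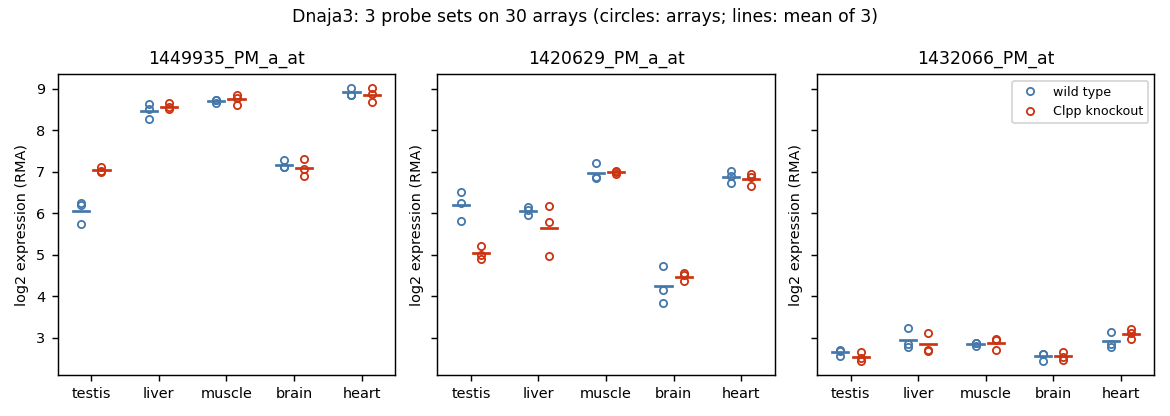
Log2 expression (RMA, vertical axis) of the 3 Dnaja3 probe sets in 5 tissues, with 1 circle per array and a line at the mean of 3 arrays, wild type in blue and Clpp knockout in red. In testis the red circles are above the blue in the left panel (by 0.97), below them in the middle panel (-1.15) and mixed in the right panel.

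In liver, muscle, brain and heart none of the 24 gene-by-tissue differences passed the test. The shares of all genes that limma called there were 2.42% in liver, 1.54% in muscle, 0.415% in brain and 2.18% in heart. The 24 differences ran from -0.24 to 0.25 log2 units, folds of 0.846 to 1.19, with 13 above 0. The lowest adjusted p was 0.368, and 1 of the 24 had an unadjusted p below 0.05. All 95% intervals lay between -0.50 and 0.54, so a change of the size seen for Hspe1, Phb2 or Dnaja3 in testis was outside every one of them. Without muscle knockout replicate 1 or heart knockout replicate 1, 0 of the 6 were called in muscle (-0.01 to 0.28) or heart (-0.17 to 0.23). The members' medians were 0.04 in liver, 0.08 in muscle, -0.06 in brain and -0.02 in heart.

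On its main probe set Hspe1 overlapped between genotypes in each of these tissues. In liver it read 9.95, 10.24 and 9.99 in the knockout and 9.89, 10.07 and 10.54 in wild type, and in muscle 9.54, 9.63 and 9.75 against 9.21, 9.45 and 9.57. The muscle difference of 0.23 ± 0.15 was the largest of that probe set outside testis (limma adjusted p = 0.584), and it was 0.13 without muscle wild-type replicate 1. Brain gave 8.94, 9.01 and 9.14 against 9.01, 8.98 and 8.98, and heart 9.75, 9.74 and 9.99 against 9.78, 9.95 and 10.03. The brain arrays were almost level, at 0.04 ± 0.15, and the heart arrays differed by -0.09 ± 0.15. The second Hspe1 probe set, which is not of the shared type, had separate liver arrays, with 7.80, 7.95 and 7.96 in the knockout and 8.06, 8.38 and 8.41 in wild type. Its liver difference of -0.38 ± 0.14 did not pass (adjusted p = 0.186), nor did any of the 28 somatic values of the members' other probe sets, which ran from -0.42 to 0.23.

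Among the Hsp70 genes, Hspa9 in heart read 10.49, 10.49 and 10.70 in the knockout and 10.43, 10.33 and 10.32 in wild type. These groups did not overlap, yet the difference of 0.20 ± 0.11 did not pass (limma adjusted p = 0.468), and 19.3% of all genes had separate heart arrays. Its other somatic differences were -0.02 in liver, -0.0026 in muscle and 0.15 in brain. Grpel1 was just below wild type in liver (9.52, 9.49 and 9.47 against 9.63, 9.70 and 9.60) and in brain (8.13, 8.10 and 7.94 against 8.23, 8.30 and 8.14), again with separate arrays, a state shared by 16.7% of genes in liver and 15.8% in brain. Neither difference, -0.15 ± 0.10 or -0.16 ± 0.10, passed the test (adjusted p = 0.633 and 0.793). In muscle Grpel1 was 0.17 higher and in heart 0.02 higher, with overlapping arrays. No member had separate arrays in muscle, where 19.4% of genes did. Dnaja3 differed by 0.10 in liver, 0.04 in muscle, -0.09 in brain and -0.06 in heart, all with overlapping arrays.

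Trap1 differed by 0.19 in liver, 0.03 in muscle, -0.24 in brain and -0.08 in heart. The brain value came from 6.99, 7.14 and 6.99 in the knockout against 7.09, 7.45 and 7.31 in wild type, where 1 knockout array overlapped (limma adjusted p = 0.681). Phb2 in liver had the lowest p of the 24. Its knockout arrays read 10.71, 10.47 and 10.43 and its wild-type arrays 10.45, 10.41 and 9.98, an overlap at 10.45, with a difference of 0.25 ± 0.12. Phb2 differed by 0.13 in muscle, -0.03 in brain and 0.05 in heart.

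**Figure D4:**
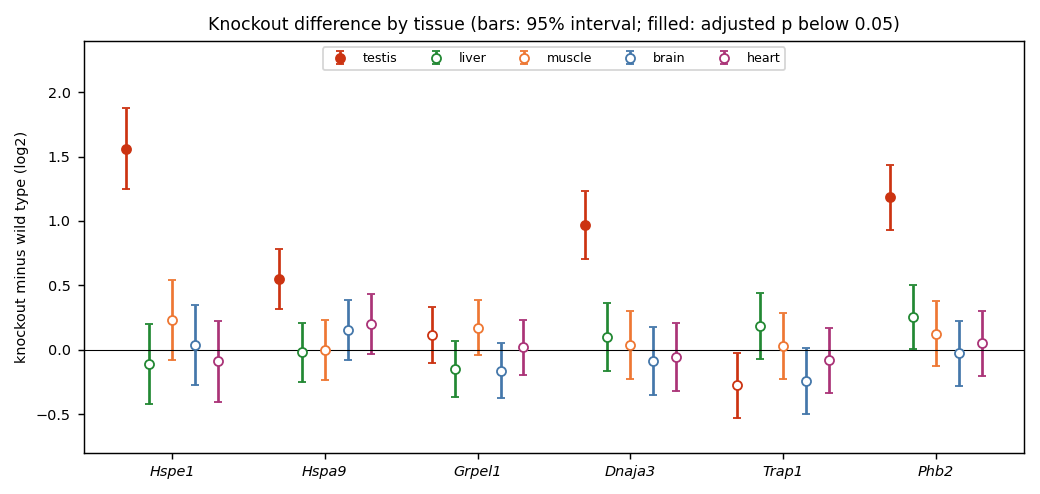
Knockout minus wild type (vertical axis, log2) for 6 genes in 5 tissues, each point with its 95% interval from limma and 3 arrays a group. Filled points, with an adjusted p below 0.05, are the testis values of Hspe1, Hspa9, Dnaja3 and Phb2, and the 24 somatic points lie between -0.24 and 0.25.

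The difference between tissues was itself tested. The testis effect minus the mean effect of the 4 other tissues was 1.54 ± 0.17 log2 units for Hspe1 (limma adjusted p = 1.93e-08), 1.08 ± 0.14 for Phb2 (1.85e-07), 0.97 ± 0.14 for Dnaja3 (1.96e-06) and 0.47 ± 0.12 for Hspa9 (0.00236). It was 0.15 for Grpel1 (adjusted p = 0.309) and -0.25 for Trap1 (0.133), so 4 of the 6 passed where 55.5% of all genes did, 32.2% with the testis effect higher. An F test over all 5 tissues passed for the same 4, with adjusted p of 7.55e-07 for Hspe1, 6.32e-06 for Phb2, 6.71e-05 for Dnaja3 and 0.0208 for Hspa9 (52.3% of genes). The F test of Hspa9 no longer passed without testis wild-type replicate 3 (adjusted p = 0.0539), or without testis knockout replicate 1 (0.0684) or 2 (0.0549). In the mean over the 4 somatic tissues none of the 6 was called (4.02% of genes were), with values from -0.03 to 0.10 and a lowest adjusted p of 0.408. The mean over all 5 tissues called the same 4 genes (33.6% of genes were called, 17.1% as higher), with Hspe1 at 0.33, Phb2 at 0.32, Dnaja3 at 0.19 and Hspa9 at 0.18, and these means contain the testis values.

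The partners of the matrix chaperones did not move as a block in testis. Of 9 measured genes of the import motor, chaperone partners and prohibitin scaffold, 5 rose and 3 fell, with a median of 0.26. All 9 had a mean level of at least 6, a class whose testis median was 0.69, against 0.02 for all genes. Clpb, a disaggregase of the intermembrane space, fell by 3.40 ± 0.18 log2 units (limma adjusted p = 3.48e-14), Pam16, a regulator of the import motor, fell by 1.16 ± 0.11, and Dnajc15, a J protein of the same motor, fell by 1.02 ± 0.11. Stoml2, which binds prohibitins and cardiolipin, rose by 1.22 ± 0.12. In the 4 somatic tissues 0 of the 9 were called. Without testis wild-type replicate 3, 4 of the 9 rose and 3 fell.

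Protein import genes rose in 18 and fell in 5 of 26 cases in testis, with a median of 0.57. Of the 26, 24 had a mean level of at least 6, a class in which 62.9% of genes rose there, with a median of 0.69. The small carrier chaperone Timm10 rose by 1.37 ± 0.10, Mtx2 of the outer membrane by 1.19 ± 0.09 and the pore subunit Tomm5 by 1.19 ± 0.16, while Mipep, a peptidase that trims imported proteins, fell by 2.19 ± 0.14 (limma adjusted p = 1.26e-12). Outside testis, Samm50 rose in liver by 0.38 ± 0.10 (adjusted p = 0.0483) and Tomm34 in muscle by 0.52 ± 0.12 (adjusted p = 0.024), the only calls of this list there. Samm50 no longer passed without the sperm- and epididymis-bearing arrays (0.0579). It also missed without liver knockout replicate 1 (0.185) or 2 (0.118) or wild-type replicate 1 (0.1997) or 3 (0.125), and with liver fitted alone (0.34). Tomm34 no longer passed without muscle knockout replicate 2 (0.0841) or 3 (0.0626) or wild-type replicate 3 (0.122), or with muscle fitted alone (0.1995). Of 11 quality control proteases 6 rose and 2 fell in testis, with a median of 0.44, and 0 were called in any somatic tissue. The class with a mean level of at least 6 held 10 of the 11. Lonp1, the other soluble protease of the matrix, rose by 1.81 ± 0.12 (adjusted p = 1.81e-12) and Lactb by 1.66 ± 0.15. Afg3l1, of the inner membrane, fell by 1.33 ± 0.14. Yme1l1, of the same membrane, fell by 1.42 ± 0.13 on its main probe set, but the mean of its probe sets was 0.29 higher in the knockout.

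The mitochondrial mass markers were read as a transcript measure of the organelle in the same arrays. All 16 had a mean level of at least 6, a class in which 62.9% of genes rose in knockout testis, with a median of 0.69. In testis 12 of 16 rose and 1 fell, with a median of 0.57, among them Cycs (cytochrome c) by 2.25 ± 0.12, Vdac1 (porin) by 1.78 ± 0.12, Cs (citrate synthase) by 1.35 ± 0.13 and Atp5a1 (ATP synthase) by 1.35 ± 0.10. No mass marker was called in a somatic tissue. Cytosolic heat shock genes showed 7 rises and 3 falls among 18 in testis, with a median of 0.30, and 16 of the 18 belonged to that class. Hspb1 rose by 2.08 ± 0.27, Hspa14 by 1.71 ± 0.13 and Hspa8, the constitutive Hsp70, by 1.43 ± 0.12 on its main probe set, although another probe set of Hspa8 gave 0.78 and missed the threshold (adjusted p = 0.207). Hspa1l, an Hsp70 of spermatids, fell by 5.01 ± 0.25. In the somatic tissues the list gave 1 call, Bag3 in liver, which fell by 0.72 ± 0.19 (adjusted p = 0.0351) and missed the threshold when any of 5 single liver arrays was left out (adjusted p up to 0.152).

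Regulators of the stress response and their targets parted from the chaperones in heart. Of 16 measured genes (transcription factors, eIF2 kinases and their targets, called regulators below) 6 rose and 0 fell in knockout heart, with a median of 0.46, where 1.11% of all genes rose. The list was chosen with earlier results of these data known, so its count is not independent of them. Asns, asparagine synthetase and a target of ATF4, rose from 3.85 ± 0.42 (SD, n = 3) to 8.05 ± 0.64, by 4.19 ± 0.45 (SE; limma adjusted p = 1.31e-06). Chac1, a glutathione-degrading enzyme, rose by 2.58 ± 0.53 (adjusted p = 0.0069) and Trib3, a pseudokinase, by 2.22 ± 0.29 (3.94e-05). Atf5, a transcription factor that drives mitochondrial chaperone genes in mammalian cells, rose by 2.44 ± 0.20 (1.95e-08), from 6.80 ± 0.34 to 9.24 ± 0.50. The remaining calls, named after their values were seen, were Ddit3 (CHOP) at 1.04 ± 0.26 (adjusted p = 0.0307) and Atf4 at 0.89 ± 0.15 (0.000655).

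On the same heart arrays the 6 chaperone and prohibitin genes lay between -0.09 and 0.20, with none called, as did 0 of 11 proteases and 0 of 9 partners. None of the 16 regulators was called in liver, muscle or brain. The count in heart was 4 to 7 when single heart arrays were left out, and Chac1 lost its call without heart knockout replicate 3 (limma adjusted p = 0.0637) or heart wild-type replicate 2 (0.0513). Ddit3 lost its call without heart knockout replicate 2 (0.119) or 3 (0.163) or wild-type replicate 1 (0.154) or 3 (0.0869), while Atf4, Atf5, Trib3 and Asns passed with any single heart array left out. With heart fitted alone, so that no spread was shared with other tissues, Trib3 (limma adjusted p = 0.113) and Chac1 (0.055) did not pass. Values of Ddit3 and Atf4 in that fit are not given here. The SD of Trib3 was 1.12 on knockout heart arrays. In testis, where 32.8% of all genes rose, 7 of the 16 rose and 1 fell, with a median of 0.23. Among the rises were Chac1 by 1.81 ± 0.53, Atf4 by 1.77 ± 0.15, Foxo3 by 1.35 ± 0.16 and Eif2ak4 by 1.32 ± 0.19. Of the 16, 10 had a mean level of at least 6, a class in which 62.9% of genes rose in testis, with a median of 0.69. On the heart arrays 0 of 7 cardiomyocyte genes, 0 of 8 hepatocyte genes and 1 of 16 macrophage genes were called. The summed macrophage level was nonetheless 11.1 to 11.7 on knockout and 10.6 to 11.1 on wild-type heart arrays, and Myl7, an atrial myosin light chain, averaged 9.67 against 4.72 without passing the test. The summed hepatocyte level was 8.63, 7.48 and 6.42 on knockout and 5.98, 6.65 and 5.92 on wild-type heart arrays. Without knockout replicate 1, the highest of these, 7 of the 16 regulators rose and 0 of the 6 chaperone and prohibitin genes were called, with 789 genes called in all in place of 372. Their part in the heart result was not tested.

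**Figure D5:**
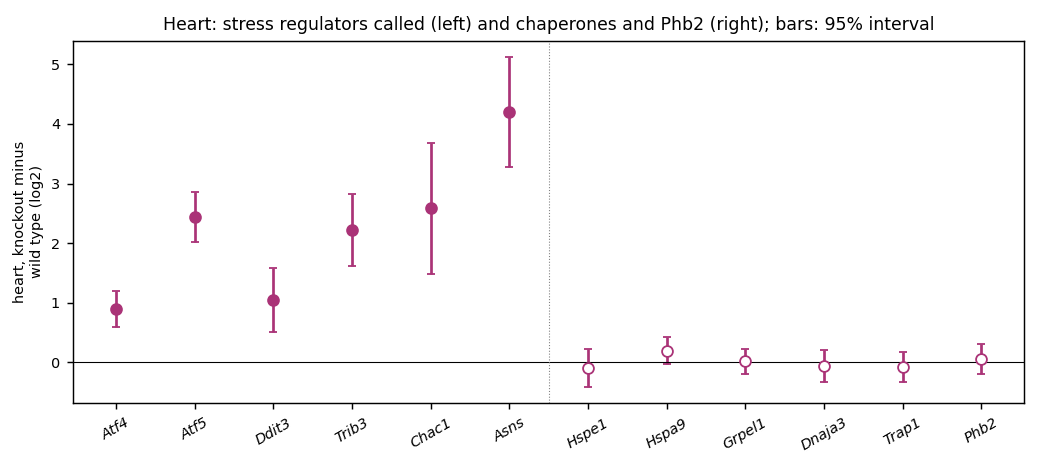
Knockout minus wild type in heart (vertical axis, log2) with 95% intervals from limma, 3 arrays a group, for the 6 called stress regulators (filled) and the 6 chaperone and prohibitin genes (open). The regulators lie between 0.89 and 4.19, and the chaperones and Phb2 between -0.09 and 0.20.

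Across the 10 group means the 15 pairs of members correlated with Pearson's r from 0.45 (Hspe1 and Trap1) to 0.93 (Grpel1 and Phb2), with a median of 0.81; these points share tissues, so the values describe tissue differences. Within groups, over 30 deviations from the group means, r ran from -0.62 (Hspe1 and Trap1) to 0.56 (Trap1 and Phb2), with a median of -0.07. By sign alone, all pairs among Trap1, Dnaja3, Grpel1 and Phb2 were positive (0.20 to 0.56), Hspe1 with Hspa9 was 0.33, and the 8 pairs across these sets were negative (-0.62 to -0.07). Several of the negative values were small, among them -0.07 for Hspa9 with Dnaja3 and -0.11 with Phb2. This grouping was drawn after the values were seen and was not tested. Of 5097 genes with a mean of at least 6, those most like a member over the group means were Ythdf3 (r = 0.98) for Hspe1, Cd36 (0.99) for Hspa9, Arpp19 (0.97) for Trap1, Mrpl14 (0.99) for Dnaja3, Slc25a20 (0.99) for Grpel1 and Hadh (0.99) for Phb2. Mrpl14 is a mitochondrial ribosomal protein, Slc25a20 the carnitine carrier and Hadh an enzyme of fatty acid oxidation. The next in line were Bckdhb and Ctsa for Hspe1, Mcrip2 and Col3a1 for Hspa9, Etfbkmt and Sra1 for Trap1, Etfrf1 and Rmdn1 for Dnaja3, Uqcrq and Plin5 for Grpel1, and Nfe2l2 and Yap1 for Phb2. Over the within-group deviations the closest genes were Mettl3 (r = 0.82) for Hspe1, Snrpb (0.80) for Hspa9, Tbc1d20 (0.80) for Trap1, Smim4 (0.72) for Dnaja3, Parl (0.78) for Grpel1 and Psmb3 (0.85) for Phb2. Each is the highest of 5097 values, and none was tested.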

How the data were processed

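The submitters' processing notes name R 2.14.0 and RMA, and the authors deposited one log2 expression value for each probe set and array, normalized with RMA; whether all arrays went through RMA together is not given in the sources used here. No further normalization was applied. Of 45141 probe sets 28898 had 1 symbol in the platform annotation, 551 several and 15692 none. Each of 17097 genes took its brightest unshared-symbol probe set; 7180 had more than 1. Values ran from 1.73 to 14.1. Precision is set by how many arrays there are.

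One limma model (limma 3.58.1, R 4.3.3) covered every gene, with 10 group means with 20 residual degrees of freedom. Tests were two-sided moderated tests, with Benjamini-Hochberg adjustment over all genes within each contrast and a threshold of 0.05; changes carry the SE of that fit. Samples entered groups by their titles. The fit was tested on simulated data. Members and gene lists were chosen with earlier results of these data known. Named list genes were up to 4 called members per list and tissue, largest change first; like genes were the 3 highest correlations per member, clone names left out. The labels do not say that replicate numbers pair samples, and the main fit used no pairing. Of 15 same-numbered pairs 4 had correlated deviations above 0.1 (range -0.28 to 0.40), in no tissue all of them. With 3 arrays a group this cannot exclude pairing, within a tissue or through animals that gave several tissues. Alternatives were fits per tissue, replicate blocks, other priors and array weights, renormalization, filters on dim genes, other probe set rules and arrays left out; other probe sets of each member were added after the values were seen. Motifs were searched on both strands. Listed genes absent from the annotation used were not analysed here.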

Additional observations from a re-analysis of the deposited data

Results flagged for a closer look

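The knockout effect differed between tissues for 4 genes by the limma F test, with adjusted p of 7.55e-07 for Hspe1, 0.0208 for Hspa9, 6.71e-05 for Dnaja3 and 6.32e-06 for Phb2. The effect in testis exceeded the mean effect in the 4 somatic tissues by 1.54 log2 units for Hspe1, 0.47 for Hspa9, 0.97 for Dnaja3 and 1.08 for Phb2, each higher on 3 of 3 knockout testis arrays. For Dnaja3 this holds on its main probe set only, and 52.3% of all genes passed the same F test. Testis minus somatic passed for 55.5% of all genes, and 63.5% had separate knockout and wild-type testis arrays. The F test of Hspa9 did not pass in several alternative fits (limma adjusted p up to 0.102). Groups of 3 arrays are too small for a test of single outlying arrays.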

How the results depend on the processing

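Of 1290 recomputed values of the 6 genes 1277 kept their side of the threshold without a reversal, meaning a sign change of a value called in either fit. These 1277 include 73 sign changes among 875 values that were uncalled in both fits, none larger than 0.11 at first. All 9 reversals were of Dnaja3 under other probe set rules (mean of all probe sets, highest variance, unshared preferred): -0.10, -1.15 and -0.12 in testis, -0.032, -0.28 and -0.0086 in the mean of 5 tissues, and -0.085, -1.09 and -0.14 for testis minus somatic. The probe sets added later gave -1.15 and -0.12 for Dnaja3 and a Trap1 value past the threshold (-0.37, adjusted p = 0.0376). Hspa9 in the mean of 5 tissues missed the threshold with the highest-variance probe set (0.14, limma adjusted p = 0.0815). Trap1 in testis passed among genes above the median level (adjusted p = 0.0493), with a mean of at least 6 (0.0395), both with fewer genes tested, and as a mean of probe sets (-0.32, 0.0213). Yme1l1 in testis reversed to 0.29 as a mean of probe sets; 32 of 583 other list values lost their call. The cause was not tested where none is given.

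The number of members called in testis was 3 to 5 over the alternatives, and 0 of 456 somatic values passed (lowest limma adjusted p 0.188). With the replicate number as a block, a pairing that the labels do not state, 4 testis members stayed called, 137 muscle and 41 brain genes were called in place of 263 and 71, and the F test of Hspa9 missed (adjusted p = 0.0524). It also missed with arrays centred on their medians (0.0857), with the highest-variance probe set (0.102) and without the 2 wild-type arrays with epididymis or sperm transcripts (0.0559). That of Dnaja3 missed as a mean of probe sets (0.698) or with unshared ones (0.587).

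Counts of all genes called moved by over 1.5 times in these fits. Fitting tissues alone gave 31 in liver (413 in the common fit), 15 in muscle, 25 in brain and 83 in heart (372). Array weights gave 190 in brain, 1146 in heart and 1343 in the somatic mean (688). Keeping genes above the median level gave 6393 in testis (9605), 46 in brain, 3805 in the mean of 5 (5748) and 6204 for testis minus somatic (9483). A mean of at least 6 gave 4216, 245, 99, 24 and 123 in testis, liver, muscle, brain and heart, 2720 and 439 in the means of 5 and 4, and 4122 for testis minus somatic. Without the 2 wild-type arrays with epididymis or sperm transcripts muscle had 174. With single arrays left out, whether or not the count moved that far, the ranges were 8937 to 9292 in testis, 293 to 423 in liver, 125 to 277 in muscle, 34 to 158 in brain, 198 to 789 in heart (most without knockout replicate 1, fewest without knockout replicate 2), 5319 to 5989 and 470 to 801 in the means, 8763 to 9613 for testis minus somatic, 3 to 4 members by the F test, 49 to 52 wild-type pairs, and -3.47 to -2.95 for Clpp in testis. The precision of the members' somatic differences is that of their 95% intervals.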
